A study of Mus musculus with 12 samples.

Results

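Zone II, the segment of the embryonic mouse tibia between its end and its centre, was compared here with the end segment, zone I. Each zone had 4 arrays, out of the 12 arrays of the series. Tibiae of CD1 mice, an outbred stock, were taken at embryonic day 15.5 from embryos that had received no treatment, and no mutant allele is named for any group. They were cut by hand into zone I at the outer end, where chondrocytes rest and divide, zone II, where most are maturing into hypertrophic cells, and zone III at the centre, which holds the oldest of these cells and the mineral. Segments of a zone were pooled within a litter before RNA was isolated, so an array stands for many cells of many embryos, and the cuts followed the shape of the bone and no marker. Members of the comparison were the probe sets of the Affymetrix MOE 430 2.0 array whose mean signal reached 50 in zone I or zone II, Affymetrix controls left out. These were 20704 of 45101 probe sets, and they represent 11248 of the 18193 genes that probe sets name by 1 symbol.

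In a growth plate, resting chondrocytes give rise to columns of dividing cells, which then leave the cell cycle, enlarge into hypertrophic chondrocytes and remodel the cartilage around them before it is mineralized. Parathyroid hormone-related protein made near the joint keeps cells dividing, Indian hedgehog from prehypertrophic cells sustains that supply, and BMP, FGF, Wnt and IGF signals set the pace. Chondrocytes secrete large amounts of collagen and sulphated proteoglycan, and the ends of the bone are wrapped in perichondrium, tendon insertions, forming joint and vessels. In a piece of tissue of this kind, fewer cells of a type and less RNA per cell cannot be told apart.

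Every value below is either a signal intensity, on the linear scale of the deposited table, or a log2 difference of zone II minus zone I from limma with its SE. A gene is represented by its brightest probe set, and levels are compared between zones and not between genes. Arrays of 1 zone correlated with each other at 0.948 to 0.976 (Pearson's r of log2 signals over the probe sets tested), and arrays of different zones at 0.853 to 0.891. With Benjamini-Hochberg adjustment, a threshold of 0.05 and a change of 1.5-fold or more, 1825 probe sets were higher in zone II and 3526 were lower, 8.81% and 17% of those tested. Among genes, counted at the same adjusted p with no fold threshold, 1905 rose and 2948 fell, 16.9% and 26.2%, and the arrays of the zones did not overlap for 15.4% of genes on the higher side and 23.1% on the lower side. Falls also outnumbered rises at each size of change. At 2-fold or more 425 genes rose and 1119 fell, and at 5-fold or more 88 rose and 210 fell. At 10-fold or more 37 rose and 69 fell, and at 20-fold or more 9 rose and 26 fell. This split depends on how the arrays are scaled. As deposited, 34.1% of the called probe sets were higher in zone II, with a median log2 difference over all genes of −0.08, against 44.1% after quantile normalization, 55.1% with arrays centred on their median and 10.2% with arrays centred on ribosomal protein genes (median −0.43). Of the 294 genes called and given with values below, 42 lost the call with ribosomal centring, each of them a rise, 15 with quantile normalization and 5, each a fall, with median centring. These genes are named where they are described, together with the counts of a list that moved by over 1.5 times with ribosomal centring. Counts of a list below are to be read against the 16.9% of all genes that rose and the 26.2% that fell. The signal minimum could be met through the higher zone alone, so counts hold members that were tested only because that zone was high. The same holds for all genes tested. Where a list below has no member called in a direction, limma gave at most 1 member there at an unadjusted p under 0.05, and none in 15 of the 19 such cases.

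Array A stood apart from arrays B, C and D in both zones. Of the 210 genes that fell at least 5-fold, array A gave the highest zone I signal for 128 and the highest zone II signal for 153. Of the 88 genes that rose as far, it was the highest in each zone for 25. Without array A of both zones, a choice made after seeing the data, 1787 probe sets were higher and 3439 lower, and of 109 counts of called members in the gene lists below 16 moved by more than 1.5 times. These are given where they arise.

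The 5 marker genes given with the comparison are described first, and since they were chosen with earlier results of these arrays known their direction is no check of the labels. Col10a1, the collagen X chain that defines hypertrophic cartilage, gave signals of 5.68, 5.95, 4.78 and 6.85 on zone I arrays A to D and 2565, 2275, 2569.5 and 2831 on zone II arrays A to D, a 443-fold rise (adjusted p = 2.0e-12). Its zone I signals lay far under 50, and with 16 added to every signal its log2 difference was 6.88 in place of 8.79. Panx3, a channel protein of maturing chondrocytes, gave 216, 239, 339.8 and 417 in zone I and 5277, 4898, 5205 and 4802 in zone II. Ihh, Indian hedgehog itself, rose from 69.4, 51.5, 63.6 and 61.4 to 743, 623, 608 and 811. For these 3 genes every zone II array lay above every zone I array. Mfap4, a microfibril-associated glycoprotein, gave 605, 496, 709 and 494 in zone I and 11.4, 9.31, 8.89 and 9.70 in zone II, a fall of 58.1-fold (adjusted p = 6.4e-08). Gas1, a membrane protein that binds hedgehog ligands, fell from 1842, 1746, 1469 and 1731 to 343, 38.2, 50.8 and 68.1, with zone II array A far above the other arrays of its zone and still under all of zone I. Of 17 genes of prehypertrophic and hypertrophic chondrocytes 16 rose and none fell, with a median log2 difference of 2.05 against −0.08 over all genes tested, and Vegfa (−0.13 ± 0.14 SE, adjusted p = 0.48) did not pass, while 13 rose and 1 fell with ribosomal centring. Of 13 measured genes of resting and periarticular cartilage 11 fell and none rose (median −2.46).

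The 20 largest rises, taken among called genes whose arrays did not overlap between the zones, held genes long known in hypertrophic cartilage beside genes best known from other tissues. After Col10a1 the largest rise was that of Mbp, a gene known for myelin basic protein and for the golli proteins made from an upstream start, with signals of 16.3, 25.7, 23.7 and 24.4 in zone I, 2566, 2366, 2648 and 2992 in zone II and 392, 417, 569 and 426 in zone III. Zone II stood above both other zones on every array, and the other 7 probe sets of the gene that passed the filter gave log2 differences from 2.44 to 9.59. Cdh19, a cadherin known from Schwann cells, rose with it, from 16.5–35.05 to 309–486. Of the 9 measured nerve and glia markers that hold both genes, 3 rose and 3 fell: S100b, which chondrocytes also make, rose by 0.71 ± 0.21 (no call without array A or with quantile normalization or ribosomal centring), while the neurofilament genes Nefl (−2.61) and Nefm (−3.69) and the glial receptor gene Erbb3 (−0.73, no call with quantile normalization or median centring) fell, and 2 rose and 5 fell with ribosomal centring. Sox10, the defining factor of Schwann cells, gave 219.8 ± 38.9 in zone I and 175 ± 39.6 in zone II (mean ± SD, n = 4 arrays; adjusted p = 0.29). What part glial cells had in the rises of Mbp and Cdh19 was not tested.

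Genes of sphingomyelin and phospholipid metabolism were among these rises. Smpd3, a sphingomyelinase that mineralizing cartilage needs, gave 73.6, 97.4, 69.99 and 68.9 in zone I and 2469, 2486, 2242 and 2704 in zone II, a 32.2-fold rise. Sgms2, a sphingomyelin synthase of the cell surface, gave 202, 249, 172 and 179.6 and 4601, 4031, 4209 and 4211, a 21.5-fold rise. Serinc5, a membrane protein of a family tied to serine-derived lipids, rose 18.1-fold from 75.2–150.2 to 1496–2251. Plaat3, a phospholipase A, rose 16.6-fold from 30.5–35.6 to 497–633. As the choice of these 4 genes required, their arrays did not overlap between the zones. They were picked from the largest rises, and no list of such genes was counted.

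Genes of mineralizing matrix were among the largest rises as well. Ibsp, bone sialoprotein, rose from 100.1, 26.4, 29.2 and 61.4 to 4033, 2688, 3478 and 3249.8. Mmp13, the collagenase of hypertrophic cartilage, rose from 20.3, 10.02, 14.9 and 15.8 to 1387, 957, 753 and 835. Dmp1, a phosphoprotein of mineralized matrix, rose from 2.10, 1.36, 2.87 and 3.23 to 182, 101, 96.1 and 95.1, with zone II array A highest. The size of a fold from such low zone I signals depends on the background: with 16 added to every signal the log2 difference of Ibsp was 5.70 in place of 6.16, that of Mmp13 was 4.97 in place of 6.01, and that of Dmp1 was 2.83 in place of 5.65.

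The other large rises were Chrdl1, a secreted BMP antagonist (15.9–49.1 in zone I, 789–1311 in zone II), Smim5, a small membrane protein (41.5–60.4 and 874–987), Gcnt2, an enzyme that branches sugar chains (22.6–32.2 and 419–556) and Irx5, a limb transcription factor (25.98–48.8 and 455–778). Cnga1, a subunit of a cyclic nucleotide-gated channel first known from photoreceptors, rose from 8.86–31.7 to 212–393 and lay at 4.77–8.28 in zone III. Klhl30, a kelch protein, rose from 10.7–17.6 to 203–254. Serpinb2, a plasminogen activator inhibitor, Mypn, a sarcomere protein, and Clic3, a chloride channel-like protein, rose 22.4-fold, 19.5-fold and 19.5-fold from signals under 10 to zone II means of 50.98, 83.8 and 56.7. With 16 added their log2 differences were 1.80, 2.25 and 1.90 in place of 4.49, 4.29 and 4.28.

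**Figure D1:**
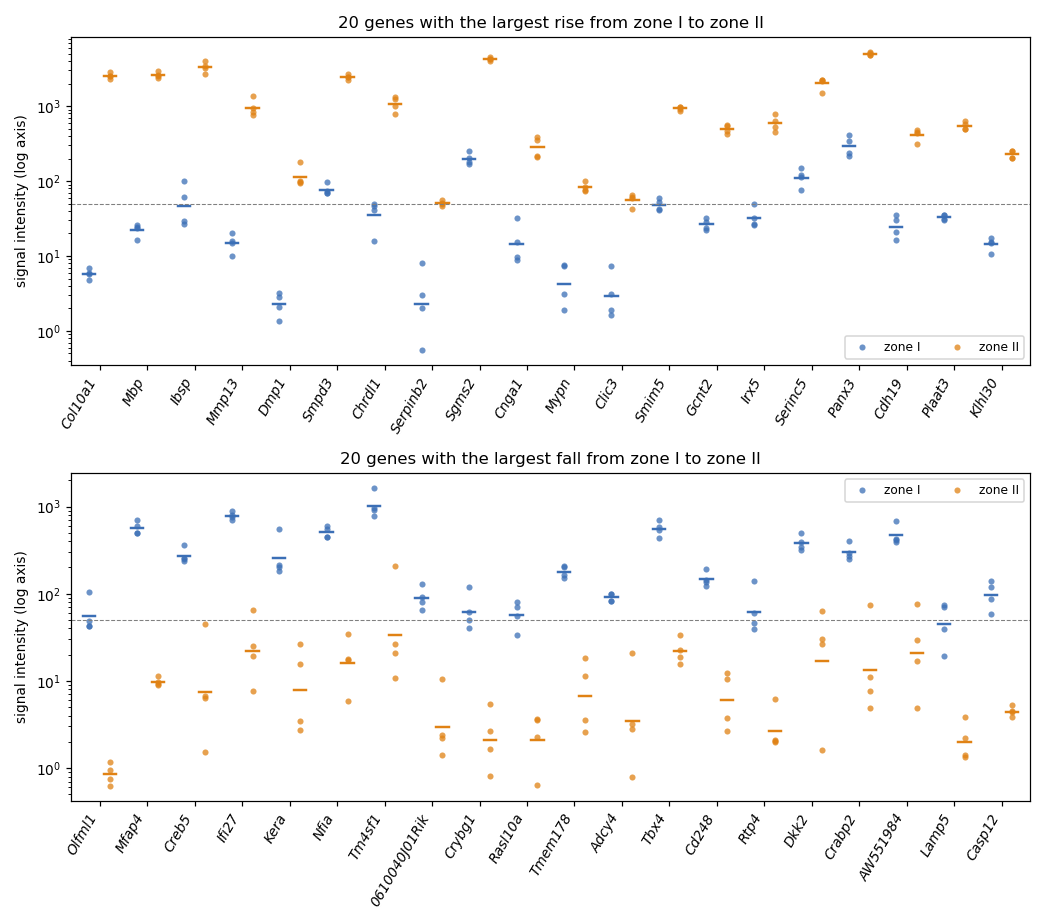
Signal intensity on a log axis of the 20 genes with the largest rise (top) and the 20 with the largest fall (bottom) from zone I to zone II, 1 probe set per gene, with a dot per array (4 per zone), a line at the geometric mean and a dashed line at a signal of 50. Genes were chosen so that the zones do not overlap. For falls such as Creb5, Tm4sf1 and Crabp2 a single zone II array, A, lies well above the other arrays of its zone.

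The largest falls, chosen by the same rule as the rises, included genes known from fibrous tissue, forming joints, limb patterning and the response to interferon. Behind Mfap4 and Olfml1, an olfactomedin-like protein that fell from 42.7–105 to 0.626–1.16 (−2.09 on the log2 scale with 16 added, in place of −6.02), came Creb5, a transcription factor of forming joints, with 358, 235, 259 and 252 in zone I and 44.6, 1.54, 6.41 and 6.66 in zone II. Zone II array A was the highest there, and with 16 added the log2 difference was −3.41 in place of −5.21. Nfia, a nuclear factor I gene, fell from 557, 603, 441 and 453 to 17.7, 5.88, 34.9 and 17.4, and its other probe sets gave log2 differences of −3.88 to −2.75. Tbx4, which marks the hindlimb, fell from 583, 709, 538 and 441 to 33.4, 19.01, 15.7 and 22.8. As the choice of these genes required, neither Nfia nor Tbx4 had an array that reached the other zone.

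Kera, keratocan of fibrous connective tissue, fell 32.4-fold, with array A highest in both zones at 554 and 26.8. Tm4sf1, a surface protein of endothelial and mesenchymal cells, gave 1632, 907, 772 and 967 in zone I and 205, 21.1, 26.8 and 10.7 in zone II, again with array A highest in both. Crabp2, a carrier of retinoic acid, fell from 402, 249, 271 and 296 to 74.7, 4.85, 7.60 and 11.2, and Dkk2, a Wnt antagonist, from 491, 315, 346 and 394 to 63.5, 1.59, 29.98 and 26.2. Cd248, a surface protein of stromal cells and pericytes, fell 24.5-fold. Ifi27 and Rtp4, both known as interferon-induced, fell 35.4-fold and 23.2-fold, and Casp12, a caspase of inflammation and stress, fell 21.7-fold. Adcy4, an adenylyl cyclase, Crybg1, Rasl10a, Tmem178, Lamp5, AW551984 and 0610040J01Rik made up the rest, with zone II means from 2.21 (Lamp5) to 31.7 (AW551984).

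Markers of fibrous tissue and of vessels were lower in zone II. Of 21 measured genes of tendon, perichondrium and fibrous tissue 16 fell and 1, Lum, rose (none without array A or with ribosomal centring), with a summed signal over the list of 23706 to 30041 in zone I and 12034 to 17174 in zone II. Sums here and below take in every gene of a list that has a probe set, also those under the signal minimum. Tnmd, tenomodulin of tendon, fell from 460.2–929 to 38.9–160.1, Scx, the tendon transcription factor scleraxis, from 89.9–166 to 38.7–62.3, and Dpt, dermatopontin, from 405–1056 to 39.6–147. Of 14 measured endothelial genes 13 fell (sums 2242 to 3246 and 1132 to 1736), among them Cdh5, VE-cadherin, from 82.3–176 to 33.8–84.2 with array A of zone II above the lowest zone I array, and Kdr, the VEGF receptor, from 111–212 to 50.8–84.6, while Pecam1 (means of 42.1 and 15.6) and Tie1 (26.7 and 1.62) lay under the signal minimum. Of 10 mural cell genes 7 fell (sums 2402 to 3598 and 1365 to 1928), with Myh11 under the minimum (4.54 and 4.64), and of 12 macrophage genes 7 fell, or 11 with ribosomal centring (sums 1868 to 3009 and 935 to 1505), such as Csf1r, 428–815 and 212–409.

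Of 18 skeletal muscle genes 3 fell (6 without array A, 11 with ribosomal centring) and 1 rose, the slow troponin gene Tnni1 (68.2 to 470.0). The sum over the 22 genes of that list with a probe set ran from 981 to 4111 in zone I and 1106 to 2072 in zone II, each time highest on array A. Of 5 erythroid markers limma called none, and none had an unadjusted p under 0.05. Sums over the 10 erythroid genes with a probe set were 3419 and 3621 on array A of zones I and II against 642 to 1673 on the other arrays of these zones. In zone III the sum was 3864 on array A and 1697 to 1946 on the others. Of 8 osteoclast genes 2 rose (1 without array A or with ribosomal centring) and 3 fell, 25% and 37.5%, against 16.9% and 26.2% of all genes. Mmp9, a gelatinase that hypertrophic cells also make, rose from 43.96–93.7 to 238–872, while Ctsk fell from 399.8–481 to 170.2–369 and Ocstamp lay at 3.64 and 6.45. Of 4 measured epidermis markers the junction genes Perp (2.43) and Dsp (2.11) rose, and the defining keratins Krt5 (37.2 and 47.7) and Krt14 (22.6 and 20.1) were under the signal minimum, and 2 rose and 1 fell with ribosomal centring. Of 13 osteoblast and bone matrix genes 10 rose and none fell, whereas 8 rose and 2 fell with ribosomal centring and 10 rose and 2 fell with quantile normalization, and Bglap was not analysed here. The part that any of these cells had in a difference between the zones was not tested.

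**Figure D2:**
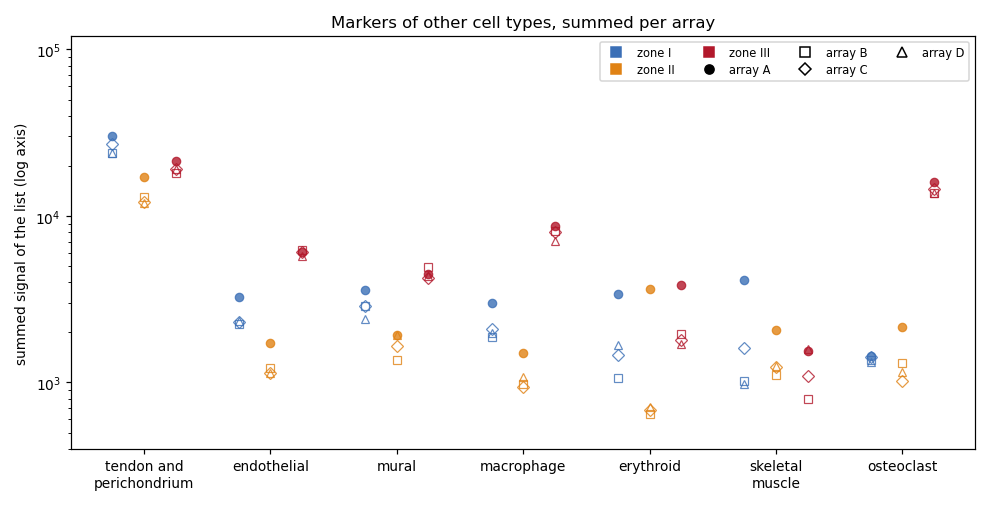
Summed signal (log axis) of marker lists of other cell types on each array of zones I, II and III, with a symbol per array letter, filled for array A. Array A has the highest sum of its zone for erythroid, endothelial, macrophage and tendon genes in zones I and II, and zone II lies below zone I for the fibrous, endothelial, mural and macrophage lists.

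Genes of the cartilage matrix moved in both directions. Of 15 measured non-collagenous cartilage proteins 6 rose and 6 fell, and 3 rose and 6 fell with ribosomal centring. Snorc, a chondrocyte membrane proteoglycan, rose from 2014–2232 to 4284–5355 (1.12 ± 0.15), Comp, a thrombospondin of cartilage, from 1769.5–2860.4 to 4515–4975 (1.03), and Prelp, a leucine-rich proteoglycan, by 0.76 with overlapping arrays and no call without array A or with ribosomal centring. Ucma, a matrix protein of resting cartilage, fell 8.47-fold from 1306–1820.1 to 157–213, Cytl1, a secreted cartilage protein, fell by 1.38 on the log2 scale, and Matn4, a matrilin, by 1.27. The proteoglycan core gene Acan rose by 0.57 ± 0.14, a call that ended with quantile normalization (0.25) and ribosomal centring (0.22), and the link protein gene Hapln1 by 0.85 ± 0.15.

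Of 11 fibrillar collagens 2 rose and 5 fell, 18.2% and 45.5%, against 16.9% and 26.2% of all genes, and 0 rose and 7 fell with quantile normalization. Col27a1 (0.46) and Col11a1 (0.34) rose, and the falls were those of Col5a1 by 2.35, Col5a3 by 1.32, Col3a1 by 1.30, Col24a1 by 1.23 and Col5a2 by 0.76 on the log2 scale. Both rises ended with quantile normalization and with ribosomal centring, where Col11a1 gave −0.01, and 1 of them remained called without array A. Col2a1, the main cartilage collagen, gave 3701 ± 721 and 4731 ± 397 (adjusted p = 0.090), and Col1a1 of bone and fibrous tissue 1155 ± 219.7 and 828 ± 343 (adjusted p = 0.067). Of 22 other collagens 4 rose and 11 fell, and 1 rose and 12 fell with ribosomal centring, Col10a1 alone keeping a call among the rises. Besides Col10a1 the basement membrane chain Col4a5 (0.79), Col13a1 (1.27) and Col9a1 (0.31, but −0.04 with ribosomal centring and no call with quantile normalization) rose, while Col8a1 (−3.79), Col14a1 (−3.68), Col8a2 (−2.42), Col4a1 (−2.05) and Col4a2 (−2.03) fell. The chains Col4a1 and Col4a5 thus moved in opposite directions.

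Elastic fibre and microfibril genes fell nearly as a whole, 14 of 15, with a median log2 difference of −1.82. Fbn2, fibrillin 2, gave 1087, 722, 922 and 829 in zone I and 183, 86.9, 100.4 and 95.5 in zone II. Eln, elastin, gave 638, 444, 505 and 508 and 171, 141, 107 and 131, and Fbln5, which helps elastic fibres assemble, 572, 336, 387 and 322 and 95.4, 66.4, 53.7 and 50.8. None of these arrays overlapped between zones. Loxl1, a crosslinking enzyme of elastin, fell by 2.44 on the log2 scale. Efemp1, fibulin 3, was the exception and rose from 182, 197, 219 and 260.0 to 326, 307, 602 and 507 (0.98 ± 0.24, adjusted p = 0.0060), with no call with ribosomal centring (0.63). Without array A of both zones 13 fell and 1 rose. Of 13 small leucine-rich proteoglycans 7 fell and 4 rose. Besides Kera the falls were those of Ogn (−2.75), Aspn (−2.70), Bgn (−1.94), Fmod (−1.72), Dcn (−1.66) and Chad, and Omd, Prelp, Nyx and Lum rose, 1 of them without array A and none with ribosomal centring.

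Proteases and their inhibitors fell more often than they rose. Of 19 measured metalloproteinases and ADAMTS genes 12 fell and 3 rose, Mmp13, Mmp9 and, from 31.4 to 52.7, Mmp8, which had no call with ribosomal centring. Adamts5, an aggrecanase, fell by 3.54, Mmp11 by 2.60 and Adamts15 by 2.38, and the membrane collagenase Mmp14 fell by 1.05 from 666–990.0 to 354–595. Of 8 inhibitors 7 fell and Timp1 rose, from 525, 521, 577 and 556 to 891, 1029, 1147 and 1033. The zones did not overlap for Timp1, and Timp2 and Timp3 fell by 0.93 and 0.98. Among 12 cathepsins Ctsh (1.16) and Ctsz (1.06) rose and 7 fell, Ctss, of macrophages, by 2.79.

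Of 29 measured genes that supply and build glycosaminoglycans 13 rose and 5 fell, against 3 and 9 with ribosomal centring. Has2, which makes hyaluronan, gave 428, 349.5, 408 and 412 in zone I, 902, 1632, 1573 and 1645 in zone II and 229, 179.5, 243 and 235 in zone III, and rose 3.51-fold to zone II (adjusted p = 1.1e-05). Every zone II array was above every other array. Ugp2, which makes the sugar nucleotide UDP-glucose, rose by 0.98 ± 0.10, Slc35d1, which carries UDP-sugars into the ER, by 0.86 ± 0.14, Slc26a2, the sulphate transporter of chondrocytes, by 0.94 ± 0.19, and Bpnt1, which clears a by-product of sulphation, by 0.80 ± 0.13. The rises of Slc26a2 and Bpnt1 ended with ribosomal centring. Among the 5 that fell, Hs6st2, a heparan sulphate 6-O-sulphotransferase, fell from 642, 866, 907 and 874 to 121, 94.8, 141 and 113, and Sulf1, which removes those sulphates, from 1325, 877, 1240.4 and 1307 to 214, 146, 210.1 and 206.

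The largest rises among 176 measured solute carriers were those of carboxylate and sulphate transporters. Slc13a4, a sulphate transporter, gave 12.1, 11.6, 36.8 and 13.2 in zone I and 191, 203, 256 and 197 in zone II, and Slc13a5, the citrate transporter of bone and liver, 105, 112, 128 and 87.9 and 901, 984, 1078 and 1185. Slc39a8, a zinc and manganese importer (2.03), Slc2a13, the proton myo-inositol transporter (1.88), and Slc25a13, the mitochondrial aspartate and glutamate carrier (1.86), followed. In all 47 solute carriers rose and 23 fell, 26.7% and 13.1%, against 16.9% and 26.2% of all genes, and with ribosomal centring 19 rose and 51 fell. Of 9 carbonic anhydrases Car8 (1.64), Car3 (1.52) and Car12 rose and Car9 fell by 2.32, from 303, 525, 246 and 299.9 to 64.2, 64.9, 65.9 and 68.2.

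Genes of cholesterol synthesis rose at nearly every measured step. Of 19 measured genes 17 rose and none fell, with a median log2 difference of 1.14, and under ribosomal centring 15 rose and 1 fell. Msmo1, a methyl sterol oxidase, gave 952, 801, 757 and 916 in zone I, 2928, 2734, 2105 and 1965 in zone II and 601, 468, 594 and 579 in zone III, a 2.81-fold rise (adjusted p = 9.3e-06). Lss, which closes the sterol rings, gave 310.3, 392, 359 and 308, 766, 923, 879 and 1052 and 265, 257, 274 and 308. Sc5d, a late desaturase, gave 215, 273, 278 and 271, 1052, 1214, 915 and 893 and 198, 152, 197 and 179 on its brightest probe set. In these 3 genes the zone II arrays lay above all arrays of both other zones. The other 2 probe sets of Sc5d gave log2 differences of −0.12 and 0.40, so its probe sets disagree.

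The early steps rose as well. Hmgcs1, at the entry, rose by 0.77 ± 0.12, Idi1, an isoprenoid isomerase, by 1.22 ± 0.12, and Fdps, which makes farnesyl diphosphate, by 1.56 ± 0.15. Tm7sf2 (1.58), Dhcr7 (1.45), Mvd (1.35) and Cyp51 (1.34) rose by more than 2-fold as well. Mvk, with 91.8, 178, 78.1 and 39.8 in zone I and 247, 170.5, 109.8 and 154 in zone II, had overlapping zones and did not pass (adjusted p = 0.056). Insig1, which retains the sterol regulator in the ER and is itself a target of it, rose from 137–209 to 249.6–392 (no call with ribosomal centring), while Srebf2, the gene of that regulator, gave 177 ± 18.8 and 139 ± 36.2 (adjusted p = 0.10). The letters TCACNCCAC, a form of the sterol element, were found on either strand in 1 of the 16 promoters that RefSeq gives for these genes (Hmgcs1), in 1.44% of all 27025 and in 1.39% of the 9121 of genes tested here. Promoters here and below were counted once per gene, and a gene matched if the window of any of its starts did.

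**Figure D3:**
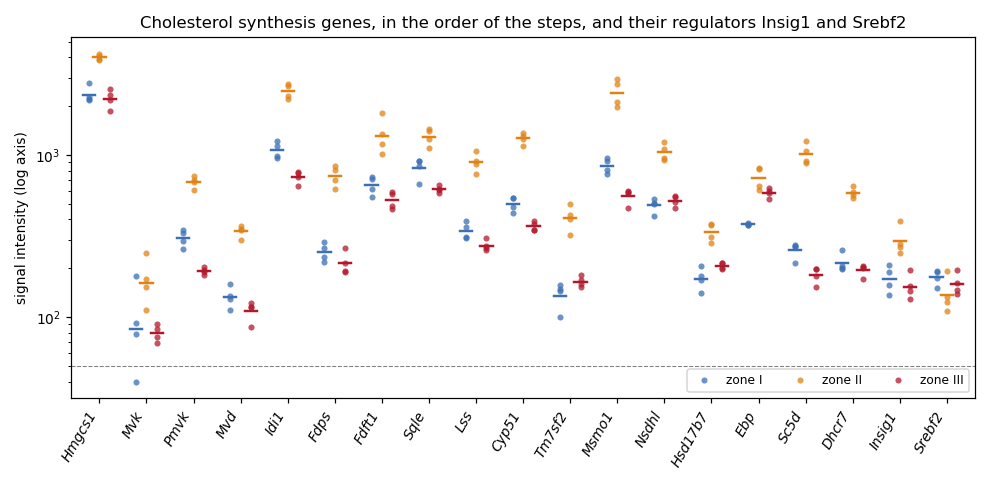
Signal intensity (log axis) of 17 enzymes of cholesterol synthesis in the order of their steps and of the regulators Insig1 and Srebf2, with a dot per array for zones I, II and III (4 each), a line at the geometric mean and a dashed line at a signal of 50. Zone II lies above zone I for each gene but Mvk, where arrays overlap, and Srebf2, which is lower on average.

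Genes of the secretory pathway differed by small amounts. Of 44 measured chaperones and transport genes of the ER 31 rose and 1 fell (median log2 difference 0.46), against 18 and 1 with quantile normalization and 5 and 2 with ribosomal centring. Creld2, a secreted chaperone of ER stress, gave 635, 685, 669.9 and 648 in zone I, 1456, 1396, 1498 and 1429 in zone II and 701, 673, 708 and 518 in zone III. Manf, another secreted stress protein, gave 1675, 1474, 1675 and 1372, 2993, 2901, 3130.0 and 2841 and 1620.5, 1385, 1466 and 1298. For both the zone II arrays lay above all others. Sdf2l1 rose by 0.94 and Sec13, of the vesicle coat, by 0.76. Hspa5, the main chaperone, rose by 0.38, and its other 2 probe sets gave −0.16 and 0.52. That call ended with quantile normalization, with ribosomal centring and without array A. Tmed10, a cargo receptor, fell by 0.36 (no call with median centring). Of 47 ribosomal protein genes 23 rose and none fell (median 0.32), but 4 rose without array A, 3 with quantile normalization and 0 with ribosomal centring, which scales the arrays on these genes.

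Of 11 sensors and factors of the ER stress response Atf4 (0.44) and Xbp1 (0.37) rose and Creb3l2 fell. Neither rise was called with quantile normalization or ribosomal centring, 0 rose and 3 fell with ribosomal centring, and without array A 1 rise and no fall was called. The sequence CCAAT, 9 bases, CCACG, the ER stress element, was found on either strand in 7 of the 37 promoters of these ER genes that RefSeq gives, 18.9%, against 0.137% of all 27025 promoters (37 of them) and 13 of the 9121 promoters of genes tested here, each window running from 250 bases before to 50 after a start. Of these 7 genes 6 rose, with a median log2 difference over the 7 of 0.40 (0.33 to 1.13). Of the 30 without the element 19 rose, with a median of 0.46 over the 30. To show the element, which few promoters hold, the upstream stretches that hold it are shown for 6 of the 7, written 5′ to 3′ on the strand of the gene, in GRCm38.p6, with the match in capitals and read on the opposite strand where it starts with CGTGG. Hsp90b1 holds the element in each direction.
Creld2 (chr15:88819490-88819569, plus strand): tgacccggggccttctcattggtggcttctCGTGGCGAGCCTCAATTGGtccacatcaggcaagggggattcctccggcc
Pdia6 (chr12:17266461-17266540, plus strand): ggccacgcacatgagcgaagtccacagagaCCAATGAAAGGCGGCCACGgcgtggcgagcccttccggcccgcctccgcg
Calr (chr8:84847044-84847123, minus strand): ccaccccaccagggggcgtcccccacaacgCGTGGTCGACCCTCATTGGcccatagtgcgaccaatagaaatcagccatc
Hspa5 (chr2:34771970-34772089, plus strand): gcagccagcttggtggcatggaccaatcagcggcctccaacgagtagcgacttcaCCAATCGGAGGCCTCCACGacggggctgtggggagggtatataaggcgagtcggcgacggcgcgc
Canx (chr11:50325769-50325848, minus strand): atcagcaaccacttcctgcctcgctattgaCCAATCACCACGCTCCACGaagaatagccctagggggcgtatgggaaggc
Hsp90b1 (chr10:86705520-86705669, minus strand): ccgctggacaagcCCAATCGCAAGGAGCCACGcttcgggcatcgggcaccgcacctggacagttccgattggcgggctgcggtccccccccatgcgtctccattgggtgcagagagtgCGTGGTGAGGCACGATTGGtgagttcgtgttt

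Enzymes that modify and crosslink collagen moved in both directions, with 10 of 24 higher and 5 lower, while 4 rose and 6 fell with quantile normalization, 3 rose and 6 fell with ribosomal centring and 15 rose and 5 fell with median centring. Loxl4, a lysyl oxidase, gave 42.3, 58.2, 41.8 and 82.3 in zone I and 544, 469, 786 and 744 in zone II, and P3h2, a prolyl 3-hydroxylase, 150.4, 145, 151 and 116 and 819.7, 692, 576 and 726. Lox itself fell from 999.6, 634, 772 and 714 to 534, 274, 245 and 323. None of these 3 genes overlapped between zones. Pcolce2, which enhances procollagen cleavage, rose by 1.32, and P4ha3, a prolyl 4-hydroxylase subunit, fell by 1.09 while P4ha2 (0.73, no call with ribosomal centring) rose. Of 14 measured genes of mineralization 7 rose and none fell: beyond Ibsp, Dmp1 and Smpd3 these were Phex (2.39), Mgp (0.56), Anxa5 (0.43) and Alpl. Of these, Mgp and Anxa5 had no call with quantile normalization or ribosomal centring, and 4 rose and 0 fell with ribosomal centring.

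Of 19 glycolysis genes 13 rose and 3 fell, against 7 and 3 with quantile normalization and 3 and 3 with ribosomal centring. Slc2a1, the general glucose transporter, gave 1124, 1378, 1173 and 1043 in zone I, 3217, 2962, 2904 and 3245 in zone II and 1070.1, 949, 1114 and 1187 in zone III, whereas Slc2a3, another glucose transporter, fell from 225, 284, 280.0 and 266 to 94.4, 76.02, 67.5 and 109.9. Neither overlapped between zones I and II. Aldoc (1.30), an aldolase, the lactate exporter Slc16a3 (1.02) and Pfkp (0.91, no call with ribosomal centring) rose, and Hk1, a hexokinase, fell by 0.74. Of 19 hypoxia-response genes 5 rose and 3 fell, against 1 and 3 with quantile normalization and 0 and 5 with ribosomal centring, Bnip3 (0.67, no call under either) being higher and Hif1a, Egln3 (−0.98) and Car9 lower. Of 25 genes of oxidative phosphorylation 15 rose (9 without array A, 4 with quantile normalization and 0 with ribosomal centring) and none fell, led by Ndufa4 (0.66, no call under either scaling), and of 21 tRNA synthetases and amino acid response genes 12 rose (6 with ribosomal centring) and none fell, Psph (1.14) and Asns (0.98) most.

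**Figure D4:**
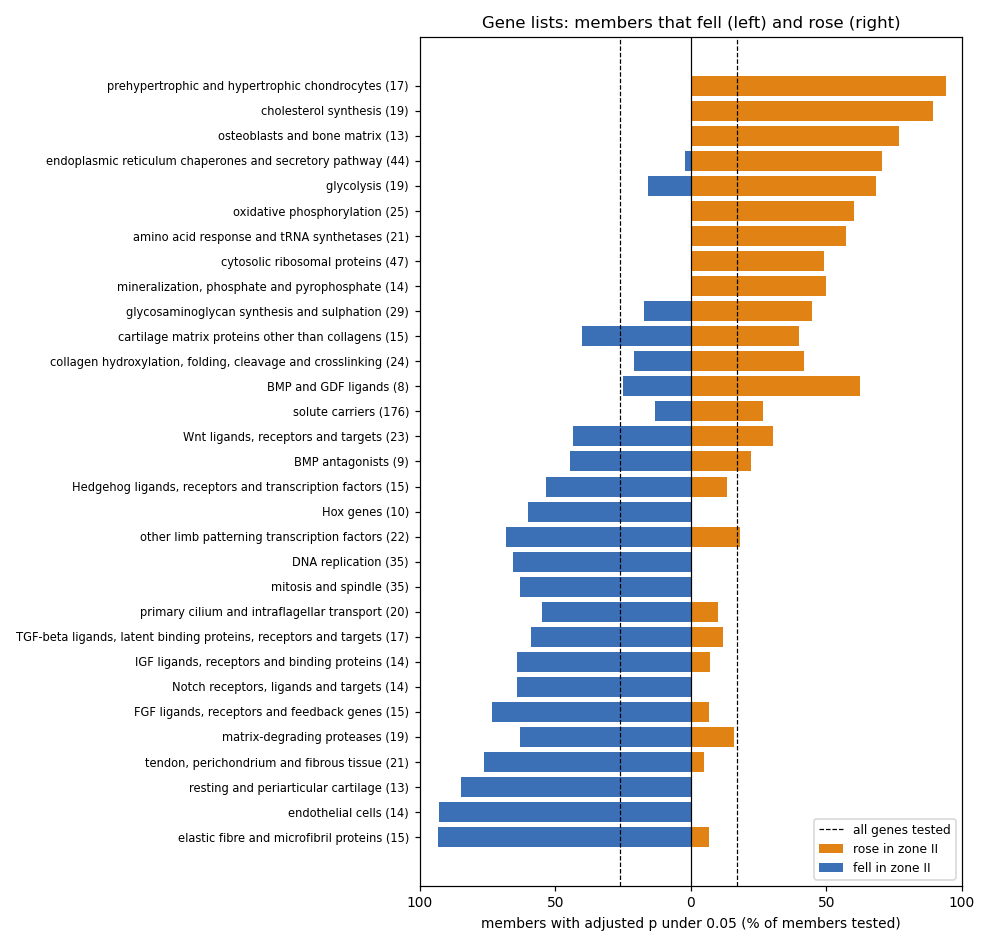
Share of tested members of 31 gene lists that fell (left, blue) and rose (right, orange) from zone I to zone II at an adjusted p under 0.05, with the number of members in parentheses and dashed lines at the shares over all genes tested, 26.2% and 16.9%. Cholesterol synthesis and hypertrophic chondrocyte genes lie farthest to the right, and elastic fibre and endothelial genes farthest to the left.

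Cell cycle genes were lower in zone II by moderate amounts. Of 35 DNA replication genes 23 fell and none rose, with a median log2 difference of −0.52. Pole, the catalytic subunit of DNA polymerase epsilon, gave 119, 156, 128 and 117 in zone I and 30.9, 38.8, 13.6 and 87.8 in zone II. Tk1, thymidine kinase, gave 592, 696, 805 and 745 and 222, 258, 373 and 296, and Pola1, of DNA polymerase alpha, 749, 869, 756 and 936 and 356, 511, 343 and 362. None of these overlapped between zones. The helicase genes Mcm2 (−0.56) and Mcm4 (−0.54) fell, neither being called with median centring, and Pcna did not pass, with 2917 ± 161 in zone I and 3096 ± 309 in zone II (adjusted p = 0.61).

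Of 35 mitosis genes 22 fell and none rose (median −0.60). Espl1, separase, fell by 1.09, Kif23, a kinesin of cell division, by 1.07, Cenpf, of the centromere, by 0.99, Kif11 by 0.82 and Mki67, the antigen of dividing cells, by 0.72 from 1387–2028 to 862–1343. Scaling changed the replication and mitosis counts of falls, to 20 and 22 with quantile normalization, 13 and 17 with median centring and 31 and 29 with ribosomal centring, with 1 mitosis gene higher under median centring. The cell cycle element TTTGAA was found on either strand in 23 of the 30 mitosis promoters that RefSeq gives, 76.7%, in 4 of the 28 of the replication genes, 14.3%, in 14.4% of the promoters of genes tested here and in 20.2% of all promoters. These 6 letters were also in 6 of 13 promoters of tendon and perichondrium genes, 46.2%, and in 5 of 15 of the 20 largest falls, 33.3%. In the hypertrophic chondrocyte, cholesterol and ER lists and the 20 largest rises the shares ran from 5.41% to 16.7%. To show the element, stretches upstream of 4 genes that fell are shown as above, with the element in capitals (TTCAAA on the opposite strand).
Espl1 (chr15:102296233-102296292, plus strand): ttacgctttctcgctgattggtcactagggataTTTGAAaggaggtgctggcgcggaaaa
Kif11 (chr19:37376322-37376381, plus strand): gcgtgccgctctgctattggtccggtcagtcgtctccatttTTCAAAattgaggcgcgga
Mki67 (chr7:135716454-135716513, minus strand): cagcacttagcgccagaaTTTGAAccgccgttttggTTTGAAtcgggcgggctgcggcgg
Kif2c (chr4:117178843-117178902, minus strand): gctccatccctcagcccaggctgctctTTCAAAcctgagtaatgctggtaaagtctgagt

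Among 24 regulators of the first gap phase 3 rose and 15 fell. Cdkn1a, which encodes the inhibitor p21, gave 166, 171, 122 and 121 in zone I, 1481, 1539, 1556 and 2011 in zone II and 2218, 1664, 2081 and 1939 in zone III, an 11.4-fold rise to zone II (adjusted p = 1.6e-08). Rb1, the retinoblastoma gene, rose from 208, 172, 167 and 159.8 to 513, 440.4, 553 and 568, while its relatives Rbl2 (−0.96) and Rbl1 (−0.69) fell. Cdk6 was the third gene to rise, by 1.14. Ccnd1, cyclin D1, fell from 687, 837, 751 and 675 to 237, 214, 255 and 284, Mycn by 2.12 and E2f7, an E2F repressor, by 1.36. Cdkn1c, which encodes p57, gave 4501 ± 579.9 and 5746 ± 328 and did not pass (adjusted p = 0.067).

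Of 15 measured members of the hedgehog pathway 2, Ihh and Ptch1, rose and 8 fell. Ptch1, both receptor and target, gave 1687, 2106, 1730.4 and 1556 in zone I and 2656, 2220.2, 2311 and 2339 in zone II (0.43 ± 0.11, adjusted p = 0.0086), a rise that ended without array A and with quantile normalization (0.17) and ribosomal centring (0.09). Smo, the signal-passing partner of Ptch1, fell from 833, 1049, 823 and 727 to 603, 615, 422 and 489.7. Gli1, another target, fell from 130.4, 172, 133 and 144 to 81.2, 82.1, 86.5 and 75.2, so that Ptch1 and Gli1 differed in direction. The co-receptor genes Boc and Cdon fell with Gas1, Boc from 552, 874, 655 and 694 to 102, 128, 113 and 106 and Cdon from 1304, 1215, 1290.1 and 1067 to 321, 281, 334 and 310.3. Gli2 and Gli3 fell by 1.77 and 1.59 and the inhibitor Sufu by 0.75. Of the other ligands, Shh (206 and 265) and Dhh (66.2 and 53.1) did not pass, and Hhip (33.4 and 16.04) lay under the signal minimum.

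Regulators of hypertrophy followed, with 8 of 18 higher and 4 lower. Pth1r, through which parathyroid hormone-related protein acts, gave 148, 328, 128 and 116 in zone I and 2606, 1958, 1338 and 1815 in zone II, an 11.5-fold rise, and its ligand gene Pthlh was not analysed here. Mef2c, a factor that drives hypertrophy, gave 686, 652, 754 and 612 and 2104, 2239, 2476 and 2682. Hdac4, which holds Mef2c back, fell from 89.8, 113, 84.7 and 79.6 to 37.6, 45.6, 36.8 and 44.4. Zone II was above zone I on every array for Pth1r and Mef2c. Sp7 (2.66), Dlx5 (1.78), Runx3 (1.38), Foxo1 (1.34), Foxa2 (0.69, no call without array A or with ribosomal centring) and Foxa3 rose, and Zfp521, a zinc finger repressor, fell from 1195, 1352, 1261 and 1290.1 to 359, 216, 309.7 and 402. Prkg2, the cGMP-dependent kinase whose loss gives short limbs, rose 8.42-fold, from 184, 286, 238 and 297 to 1959, 1975, 2211 and 2183, while the natriuretic peptide receptor gene Npr2, upstream of it, fell by 0.74 (but differed by 0.03 within 1 of 3 fluidics runs). Prkg2 and Npr2 were the only calls among 4 measured genes of that pathway.

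Of the promoters of the 20 most risen genes, RefSeq gives 12, and 4 hold the RUNX letters TGTGGT on either strand, 33.3%, against 18.9% of all promoters and 14.5% of those of genes tested here, and 4 hold the AP-1 letters TGANTCA, against 8.97% and 5.90%. The SOX letters ATTGTT are in 3 of the 12, against 12.2% and 7.05%. Over all genes that rose or fell the shares lay near those of genes tested. RUNX letters were in 15.1% of promoters of risen genes and 14.5% of fallen ones, and AP-1 letters in 6.39% and 6.66%. Upstream stretches of 2 of the 12, Mmp13 and Dmp1, are shown as above, as the most risen of the 4 with the RUNX letters, with the match in capitals (ACCACA on the opposite strand).
Mmp13 (chr9:7272369-7272428, plus strand): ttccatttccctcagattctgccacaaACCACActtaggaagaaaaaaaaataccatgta
Dmp1 (chr5:104202426-104202485, plus strand): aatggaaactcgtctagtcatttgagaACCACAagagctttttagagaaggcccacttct

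Of 7 Wnt ligands on the list that were measured 5 rose and 1 fell, while of 10 Frizzled receptors 1 rose and 7 fell. Wnt2, Wnt2b, Wnt6 and Wnt16 lay under the signal minimum, and others, such as Wnt5b and Wnt9a, met it through 1 zone alone. Wnt4 gave 92.4, 92.05, 80.7 and 60.6 in zone I and 848, 732, 799 and 756 in zone II, Wnt5b 60.5, 26.1, 42.6 and 45.8 and 308, 154, 239 and 177, and Wnt5a 197, 167, 144 and 169 and 407, 405, 419.9 and 454. None of these overlapped. Wnt10b (2.05) and Wnt11 (1.09) rose as well, and Wnt9a, known from joints, fell from 77.8–129.5 to 12.5–15.6. Fzd1 rose (0.58, no call with ribosomal centring), and the Frizzled genes that fell were Fzd6 (−1.84), Fzd7 (−1.44), Fzd4 (−1.30), Fzd2 (−1.22), Fzd5 (−1.05), Fzd8 (−0.73) and Fzd9. Ror1, a receptor of Wnt5a, fell from 154, 88.00, 105 and 91.5 to 26.4, 2.57, 8.62 and 2.23, but its other probe set gave 0.26. The target genes split, as Axin2 rose by 0.59 ± 0.16 (no call without array A or with ribosomal centring) and Lef1 fell by 1.78 on the log2 scale. In all 7 of 23 rose and 10 fell.

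Of 11 secreted Wnt antagonists 3 rose and 4 fell, 27.3% and 36.4%, against 16.9% and 26.2% of all genes. Frzb gave 341, 559, 429.8 and 385 in zone I and 979.7, 758, 1152 and 1332 in zone II, and Dkk1 31.6, 21.7, 31.2 and 36.5 and 102, 109, 46.2 and 77.3. Notum, a lipase that inactivates Wnt, rose by 1.18. Against these Sfrp2 fell from 665, 497, 452 and 458 to 81.5, 42.5, 26.1 and 45.6 and Dkk3 from 738, 511, 663 and 519.9 to 103, 55.4, 83.4 and 82.2, with zone II array A highest for each of the pair. Sfrp1 fell by 1.01.

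Of 8 BMP and GDF ligands 5 rose and 2 fell, and 3 rose and 2 fell with ribosomal centring. Bmp8a rose from 7.89–30.02 to 71.99–127, Bmp6 from 159, 157, 103 and 116 to 573, 463, 472 and 589, and Gdf10 (1.03), Bmp4 (0.95) and Bmp7 (0.43) by less, Gdf10 and Bmp7 having no call with ribosomal centring. Bmp5 fell from 1184, 1409, 1459 and 1669.8 to 479, 557, 513 and 552, and Gdf5, of forming joints, by 1.63. Of 9 antagonists Chrdl1 and Twsg1 (0.39, no call with ribosomal centring) rose and 4 fell, Sostdc1 from 230.0, 227, 231 and 204 to 52.9, 25.6, 70.3 and 24.1, Grem1 by 2.46, Fstl1 by 1.80 and Chrd by 0.71. Of 14 receptors, Smads and Id genes 8 fell, the receptor Acvr1 most (−1.22, with 0.69 on its other probe set), and Smad1 rose (0.44, no call with ribosomal centring).

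In the TGF-beta pathway 10 of 17 genes fell and 2 rose (11 and 1 with ribosomal centring). Ski, a co-repressor, fell by 2.89, and the latent binding proteins fell with it, Ltbp1 by 2.77, Ltbp2 by 2.70 and Ltbp3 from 1900.2, 1852, 1496 and 1226 to 532, 344, 420.3 and 399. Tgfbr2, the type II receptor, fell from 1311, 1375, 1211 and 1144 to 584, 379, 589 and 653, while the ligand Tgfb2 rose from 374, 349, 326 and 381 to 661, 517, 601 and 702. Zones I and II did not overlap in these 3 genes. Tgfb1 rose by 0.87 to a mean of 64.01, close to the signal minimum, and had no call with ribosomal centring.

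**Figure D5:**
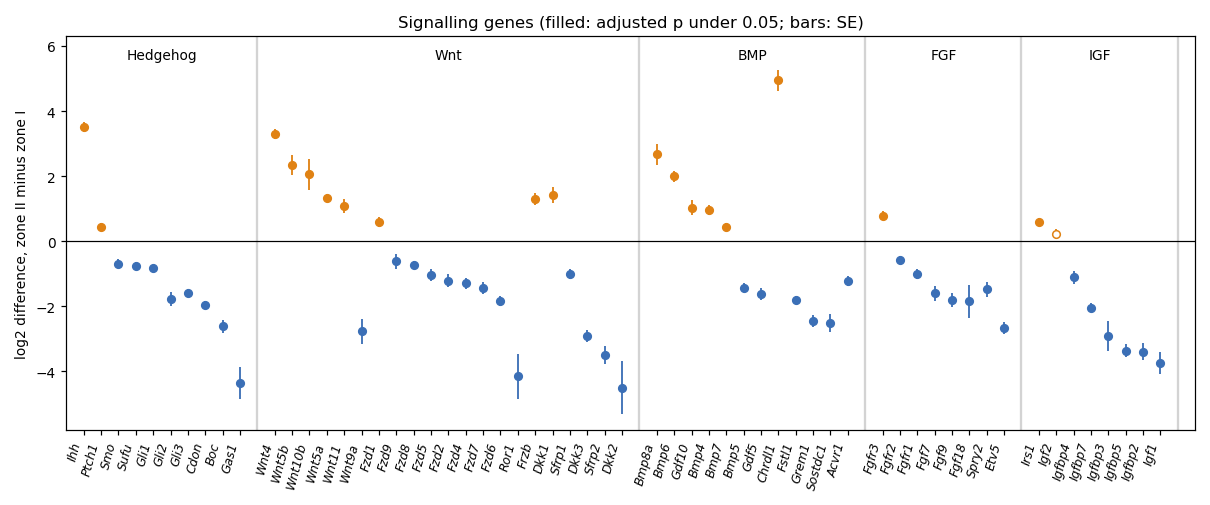
Log2 difference of zone II minus zone I with its SE for hedgehog, Wnt, BMP, FGF and IGF genes, filled where the adjusted p was under 0.05 (4 arrays per zone). The ligands lie on both sides of 0, with Ihh, Wnt4 and Bmp6 above it and Igf1, Wnt9a, Fgf18, Fgf9, Fgf7, Gdf5 and Bmp5 below it, while most receptors, co-receptors, binding proteins and the antagonists Dkk2, Sfrp2 and Grem1 lie below it, Ptch1, Fzd1, Frzb, Dkk1, Chrdl1, Fgfr3 and Irs1 being above.

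FGF and IGF genes were mostly lower in zone II. Fgfr3, the receptor that restrains chondrocyte division, was the 1 of 15 FGF genes that rose, from 1486, 1873, 1923 and 1977 to 3344, 2993, 3191 and 2922, and that rise ended with ribosomal centring (0.44). Fgfr1 fell from 584, 528, 591 and 414 to 274, 231, 237 and 297. The ligands Fgf18 (−1.86), Fgf9 (−1.82) and Fgf7 (−1.61) fell to means of 26.4, 15.3 and 38.9. The feedback genes of FGF signalling fell too, Etv5 from 376, 529, 375 and 342 to 87.8, 58.9, 49.6 and 61.1, Dusp6 by 1.70 and Spry2 by 1.48, to 11 falls in all. Dusp9, another phosphatase of that family of 8, rose from 60.2, 86.7, 58.5 and 54.2 to 353, 339.9, 263 and 303, and 5 of the 8 fell, Dusp6 most.

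Igf1 gave 2194, 1353, 1941 and 1822 in zone I and 311, 74.6, 103 and 133 in zone II, a 13.5-fold fall (adjusted p = 4.4e-06), with zone II array A the highest of its zone. Igf2 did not pass, with 3701 ± 675 and 4266 ± 364 (adjusted p = 0.25). Of the binding proteins, Igfbp2 fell by 3.40, Igfbp5 by 3.37, Igfbp3 by 2.91, Igfbp7 by 2.05 and Igfbp4 by 1.12 on the log2 scale. Irs1, which passes the receptor signal on, was the 1 of 14 that rose, by 0.60 ± 0.12, and 9 fell. That rise ended with ribosomal centring (0.25).

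Of 14 Notch genes 9 fell and none rose, the ligand gene Jag1 by 2.65 to 14.8 and Notch3 from 357, 237, 273 and 257 to 138, 71.1, 80.1 and 91.2. Of 13 measured vessel growth factors, receptors and inhibitors 8 fell, Vegfc by 2.97, Nrp2 by 2.07 and Thbs2 by 2.32. Thbs1 rose from 161, 259, 192 and 129.9 to 493, 381, 423 and 482, so Thbs1 and Thbs2 moved in opposite directions. Guidance molecules gave 4 rises and 12 falls in 23, and 2 rose and 18 fell with ribosomal centring: Sema3d rose from 156, 169.7, 175 and 314 to 1037, 1198, 1396 and 1650.0 and Unc5b, a netrin receptor, from 175, 185, 117 and 163 to 939.8, 842, 596 and 819, while Sema3c fell from 1239, 1401, 1516 and 1732 to 295, 221, 236 and 295. Sema3d and Sema3c, of 1 family, thus lay at opposite ends. Chemokines gave 2 rises and 3 falls in 13, 15.4% and 23.1%, near the 16.9% and 26.2% of all genes (5 falls with ribosomal centring), Cxcl12 falling from 382–719 to 43.9–188.

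Patterning factors of the limb were lower in zone II, with a few that rose. Of 10 measured Hox genes 6 fell and none passed as risen, Hoxa10 from 949, 909, 968 and 859 to 231, 210.4, 191 and 255 and Hoxa11 by 1.36, while Hoxa5 gave 113, 143, 401 and 135 and 411, 509, 393 and 378 (adjusted p = 0.054). Of 22 other limb factors 15 fell and 4 rose. Osr2 (−4.37) and Osr1 (−3.75), of joint and connective tissue, Lhx9 (−2.49), Barx1 (−1.98) and Pitx1 (−1.86), which specifies hindlimb, fell, and Irx5, Irx3 (from 30.5–44.1 to 238–294), Dlx5 and Msx1 (0.86, no call with ribosomal centring) rose. Among 8 Sox genes Sox11 fell from 1120.4, 1279, 1122 and 1215 to 274, 282, 270.2 and 297, Sox4 (−0.47, no call with median centring) and Sox12 fell by less, 5 of the 8 falling with ribosomal centring, and Sox9, the master factor of cartilage, gave 679.7 ± 134 and 723 ± 114 (adjusted p = 0.69).

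Of 20 AP-1 and immediate early genes 3 rose and 5 fell, 15% and 25%, near the 16.9% and 26.2% of all genes, and 0 rose and 11 fell with ribosomal centring. The falls included Egr1 by 1.18 and Maff by 0.81 beside Creb5, and Atf3, Maf and Mafk rose. Without array A 1 rise and 3 falls were called, and not that of Egr1. Of 21 histone and DNA modifying genes 11 fell (7 without array A) and 2 rose (1 without it): Tet1 (−1.06), Uhrf1 (−0.99), Dnmt3a (−0.99) and Dnmt1 (−0.85) were lower, and Hdac9 (1.02) and Hdac1 (0.43) higher. Neither rise was called with ribosomal centring, and that of Hdac1 not with quantile normalization either. Of 20 genes of the primary cilium, in which hedgehog signals are read, 11 fell and 2 rose, Ift27 (−1.01) and Dync2h1 (−0.89) falling and Ift20 (0.63) and Ift57 (0.56) rising, but 0 rose and 15 fell with ribosomal centring.

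Cell death genes and surface proteins closed the lists. Of cell death genes 23.1% rose and 38.5% fell, and of potassium channel genes 18.2% and 40.9%. The shares were 27.8% and 16.7% for integrins and 12.5% and 37.5% for laminins, against 16.9% and 26.2% of all genes. Of 13 genes of cell death Bbc3, which promotes cell death (0.66), Bcl2, which prevents it (0.57), and Bcl2l1 rose, and 5 fell, Bok by 1.19 and Bcl2l11 by 1.12 beside Casp12, but 0 rose and 8 fell with ribosomal centring. Among 6 channel and junction genes Panx3 rose and Panx1 fell from 89.7, 57.5, 66.4 and 57.9 to 42.6, 9.78, 10.3 and 10.3, with Gjc1 (−1.38) and Gja4 (−0.82) also lower. Of 22 potassium channel genes 4 rose and 9 fell, and 1 rose and 11 fell with ribosomal centring, Kcnma1 rising by 1.33 and Kcnd2 falling by 2.84. Integrins gave 5 rises (3 without array A) and 3 falls in 18, and 3 rose and 8 fell with ribosomal centring, Itga1, a collagen receptor, from 109, 119, 134 and 128 to 427, 535, 557 and 599 and Itga8 from 319, 453, 395 and 351 to 67.4, 86.2, 128 and 123, and laminins 1 and 3 in 8 (0 and 3 with ribosomal centring), with Lamb1 falling by 2.57. Of 7 S100 genes S100a13 (0.81), S100a1 (0.78), S100b and S100a10 rose (2 of the 4 without array A) and S100a16 fell by 1.19, but 0 rose and 2 fell with ribosomal centring.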

How the data were processed

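Total RNA of tibia zones was hybridised to Affymetrix MOE 430 2.0 arrays, 4 per zone. The deposited table holds 1 linear signal intensity per probe set and array. The authors name GCRMA and RMA, and the submitters' notes name RMA, but the values are linear with a trimmed mean of 150.0 on every array (2% cut at each end), and no source used here gives the algorithm behind them. They carry no detection flags, so the background sets the size of folds where a zone lies far under 50, and depth is not defined for arrays, whose number limits the precision. The deposited scanner setting files were used for the fluidics run of an array alone.

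Signals were taken to log2 and fitted with limma 3.58.1 in R 4.3.3 over all 12 arrays, with a mean per zone and a shared spread. Probe sets entered where the mean signal reached 50 in zone I or zone II, and p-values were Benjamini-Hochberg adjusted over 20704 probe sets. Of the probe sets, 34945 had 1 gene symbol, 932 had several and 9160 had none, and 34754 matched RefSeq by Entrez number with 0 symbols updated. The brightest probe set over the 8 arrays stood for a gene. The fit was tested on simulated data. Promoters came from RefSeq (GRCm38.p6) and were counted per gene, over all of its starts.

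Genes named were the 5 markers, the 20 largest rises and falls with no overlap, up to 5 called members per direction of a list, genes the study names, and hedgehog and PTHrP genes, and any other was chosen after its values were seen. Members and all 64 lists were chosen with earlier results of these data known. Each array pools segments of a litter, and p-values measure the spread between these pools. Alternatives covered the filter, scaling, added signal, variance model, replicate block, fluidics run and left-out arrays.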

Additional observations from a re-analysis of the deposited data

Results flagged for a closer look

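Among the signals of the genes named above, 35 of 614 sets of 4 arrays of 1 zone had an array whose distance to its nearest neighbour, on the log2 scale, as a share of the whole range was over Dixon's critical value for 4 values, where chance alone gives about 1 set in 20. These are signals, given with the range of the other 3 arrays of the zone in parentheses. On array A of zone I Nefm gave 84.5 (55.7 to 59.2), Olfml1 gave 105 (42.7 to 48.5), Kera gave 554 (181 to 215), AW551984 gave 689 (395 to 421) and Hs6st2 gave 642 (866 to 907). On that array Sc5d gave 215 (271 to 278) as well. On array B of zone I Chrdl1 gave 15.9 (40.99 to 49.1), Sulf1 gave 877 (1240.4 to 1325), Pfkp gave 319.9 (196 to 209), Egln3 gave 424 (282 to 299.8) and Espl1 gave 213 (154 to 159). On array C of zone I Slc13a4 gave 36.8 (11.6 to 13.2). On array D of zone I Erbb3 gave 57.9 (79.6 to 84.9), P3h2 gave 116 (145 to 151), Hk1 gave 337 (522 to 567), Sostdc1 gave 204 (227 to 231) and Igfbp5 gave 612 (837 to 881). On that array Sema3d gave 314 (156 to 175) and Sox9 gave 481 (721 to 764) as well. On array A of zone II Dmp1 gave 182 (95.1 to 101), Rtp4 gave 6.13 (1.99 to 2.07), Cdh5 gave 84.2 (33.8 to 36.3), Col1a1 gave 1342 (621 to 678) and Has2 gave 902 (1573 to 1645). On that array Atf4 gave 2754 (2266 to 2334), P4ha3 gave 187 (113 to 117), Igfbp3 gave 197 (33.7 to 43.97), Thbs2 gave 167 (95.5 to 101) and Panx1 gave 42.6 (9.78 to 10.3) as well. On array B of zone II Serinc5 gave 1496 (2192 to 2251), Sulf1 gave 146 (206 to 214), Pola1 gave 511 (343 to 362) and Gli2 gave 128 (175 to 186). On array D of zone II Cdkn1a gave 2011 (1481 to 1556) and Twsg1 gave 713 (646 to 651).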

How the results depend on the processing

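Of 1825 probe sets higher in zone II and 3526 lower, the counts moved by over 1.5 times to 3116 higher with median centring, 806 higher and 7073 lower with ribosomal centring, and 3368 higher with no fold threshold. Leaving out 1 array of zone I or II in turn gave 1768 to 1895 higher and 3398 to 3640 lower. The paper counts each litter as 1 independent experiment, with its tibiae cut into all zones, so its design matches the zones by litter. Whether arrays of the same letter share a litter is not stated, and the main fit has no term for the letter. Deviations of same-lettered arrays from their zone means correlated at 0.28 (A), −0.13 (B), 0.12 (C) and 0.07 (D), and A alone correlated best with its own letter. Such weak correlations cannot decide whether the letters mark the litters. With the replicate block 1862 were higher and 3619 lower.

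Of 294 named genes that passed the test 28 were too dim to be tested with a signal minimum of 100. Of the other 266, which had a value in all 20 alternatives, 220 kept the call in each. Of the 294, 52 lost the call in at least 1 alternative, 40 of them falling short and a further 2 turning with ribosomal centring. Within the 3 fluidics runs 293 kept their sign, Npr2 being the exception. The genes were called on these same arrays, so this count is no separate check. In run 3 array D of zone I alone stood against array D of zone II. Without an array of zone I or II the highest adjusted p was 0.058 for Col27a1, 0.12 for Col9a1, 0.058 for Erbb3, 0.0634 for Hspa5, 0.0529 for Mmp8, 0.0514 for Npr2, 0.056 for S100b, 0.0992 for Mcm4 and 0.0568 for Ndufa4. Signs turned with ribosomal centring for Col11a1 (−0.0076), Col9a1 (−0.037), Pcna (−0.27), Igf2 (−0.13) and Sox9 (−0.25), with quantile normalization for Pcna (−0.23), Igf2 (−0.073) and Vegfa (0.032), with median centring for Vegfa (0.046), with the median over all probe sets of a gene for Sc5d (−0.12) and Igf2 (−0.20), and without zone I replicate D for Sox9 (−0.059, within a range of −0.059 to 0.20 over the arrays left out). The causes were not tested.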
